A study of Mus musculus with 6 samples.

Results

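The genes described here are 8 genes of red cell development: Alas2 and Fech of heme synthesis, the iron receptor gene Tfrc, the membrane genes Slc4a1, Epb42 and Rhag, the transcription factor gene Klf1 and the erythropoietin receptor gene Epor. They were chosen by gene symbol in the array's platform table, where each had 1 probe set, and they are 8 of 24015 probe sets with a symbol. Tissue was taken from C57Bl/6 mouse embryos at embryonic day 11.5, with no mutation or treatment named in the labels. Dorsal tissue was the strip bounded by the notochord and the top of the aorta, ventral tissue lay beneath the vessel, and both came from the same embryos by laser microdissection of unfixed frozen sections. There were 3 dorsal and 3 ventral arrays, described as biological replicates 1 to 3, and this number limits the precision of every value. The labels do not say whether 1 array held tissue of 1 embryo or of several.

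Red cells of the mouse embryo arise first in the yolk sac and then in the fetal liver, and both kinds circulate at midgestation, so that vessels in any section can hold them. Heme, the iron-bearing group of hemoglobin, is made by a chain of enzymes that starts in mitochondria with 5-aminolevulinate synthase (Alas2 in red cell precursors, Alas1 in most other cells) and ends there with ferrochelatase (Fech), which inserts iron. The iron enters by endocytosis of transferrin bound to its receptor, Tfrc. Maturing cells also build a membrane in which band 3 (Slc4a1), protein 4.2 (Epb42) and the Rh-associated glycoprotein (Rhag) join the lipid layer to a spectrin skeleton. Klf1, a zinc-finger factor that binds CACC boxes, and Gata1, which binds GATA sites, drive many of these genes, and Epor carries the survival signal of erythropoietin.

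The sequence just before the start site of 4 of the genes is shown because Klf1 and Gata1 sites are described in promoters of this program, and because Tfrc, also used by dividing cells of other kinds, differed least between the tissues. Sequences come from RefSeq's GRCm38.p6 promoter windows, each 300 bases long with 250 of them before a start site. Windows of 6 of the 8 genes were searched. Slc4a1 had no window, and Fech was left out of the search, so both are named only. Each sequence reads 5′ to 3′ on the gene's own strand and covers the 130 bases before the start. Capitals mark letters matching a GATA motif (AGATAA, where the first letter may also be T and the last may also be G) or a CACC motif (CCNCNCCC) on either strand. Alas2 lies at chrX:150547287-150547416 (plus strand), Klf1 at chr8:84901852-84901981 (plus strand), Epor at chr9:21963577-21963706 (minus strand) and Tfrc at chr16:32608766-32608895 (plus strand).
Alas2: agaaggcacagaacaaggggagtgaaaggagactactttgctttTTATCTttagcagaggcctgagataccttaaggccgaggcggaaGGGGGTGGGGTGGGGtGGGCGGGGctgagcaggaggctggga
Klf1: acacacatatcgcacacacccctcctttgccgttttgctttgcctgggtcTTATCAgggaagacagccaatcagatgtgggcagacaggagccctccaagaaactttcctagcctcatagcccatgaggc
Epor: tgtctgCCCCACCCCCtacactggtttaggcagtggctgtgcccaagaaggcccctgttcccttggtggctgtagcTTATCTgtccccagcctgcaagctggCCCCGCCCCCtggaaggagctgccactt
Tfrc: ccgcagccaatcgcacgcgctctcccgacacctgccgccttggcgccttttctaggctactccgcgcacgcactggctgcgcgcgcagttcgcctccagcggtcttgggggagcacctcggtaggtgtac

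The window of Alas2 held 1 GATA match, beginning at base −86 from the start, and 4 CACC matches from base −42 to the match at −26, several of which overlap each other. That of Epor also held 1 GATA match, at −54, and 4 CACC matches. Klf1 had 1 GATA match, at −80, and no CACC match. Epb42 had 1 GATA match, at −226, and Rhag 1, at −31. Neither had a CACC match, and no sequence of either gene is printed here. Tfrc, with 2 listed windows, had no GATA match in either, and 5 and 3 CACC matches, none within the stretch printed. These windows overlap, and the matches at 39 and 41 in the first are those at −188 and −186 in the second. No GATA match overlapped a CACC match in these windows. Of all 32851 windows of the same length, 29.8% held a GATA match, 49.5% a CACC match and 10.2% both. A match is a description of letters and not of a bound site.

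Signals of 7 of the 8 genes were lower on average in ventral than in dorsal tissue by 1.18-fold to 1.90-fold, and Tfrc differed by 1.03-fold. The log2 fold change, here always ventral minus dorsal, was thus negative for all 8, as it was for 52.3% of the 12028 genes tested. No gene of the 8 passed an adjusted p of 0.05 in limma, a linear model fitted over all genes with the replicate number as a block. That threshold was passed by 0.515% of all genes tested. At an unadjusted p below 0.05, 3 of the 7 genes tested were lower in ventral tissue (Alas2, Klf1 and Slc4a1), against 5.14% of all genes. The median log2 fold change of the 7 was −0.61, and that of all genes tested was −0.01. Rhag was not tested in this fit because its mean over the 6 arrays, 4.49, lay just under the brightness filter of 4.52. The next gene above the filter was Epb42, with a mean of 4.94.

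In bulk tissue, fewer red cells and less RNA per red cell cannot be told apart. Marker genes of the labelled tissues stood apart, with Pax1, Col2a1 and Chad of sclerotome and cartilage higher in dorsal tissue (log2 fold changes −2.60, −1.75 and −2.32) and Tcf21, Gata6, Hlx and Zfpm2 of visceral mesoderm higher in ventral tissue (4.70, 3.19, 2.00 and 2.28). These 7 were named because they passed, with adjusted p from 0.00336 to 0.0258 in limma. They are 3 of 6 tested sclerotome genes and 4 of 8 visceral genes, and the others missed the threshold. They kept their direction under every alternative run for them (15 for Pax1, Chad and Zfpm2, which the stricter brightness filter removed, and 16 for the others). Some alternatives, such as dropping the block, cannot turn a direction. Each of the 7 missed the threshold under at least 1, in 25 instances together (Col2a1 without pair 1 had an adjusted p of 0.0513, for example). Of the lists they come from, 6 of 6 tested sclerotome genes were negative and 7 of 8 visceral genes positive, and the exception was the visceral gene Foxf1 (−1.71 ± 0.72, adjusted p = 0.468 in limma).

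**Figure D1:**
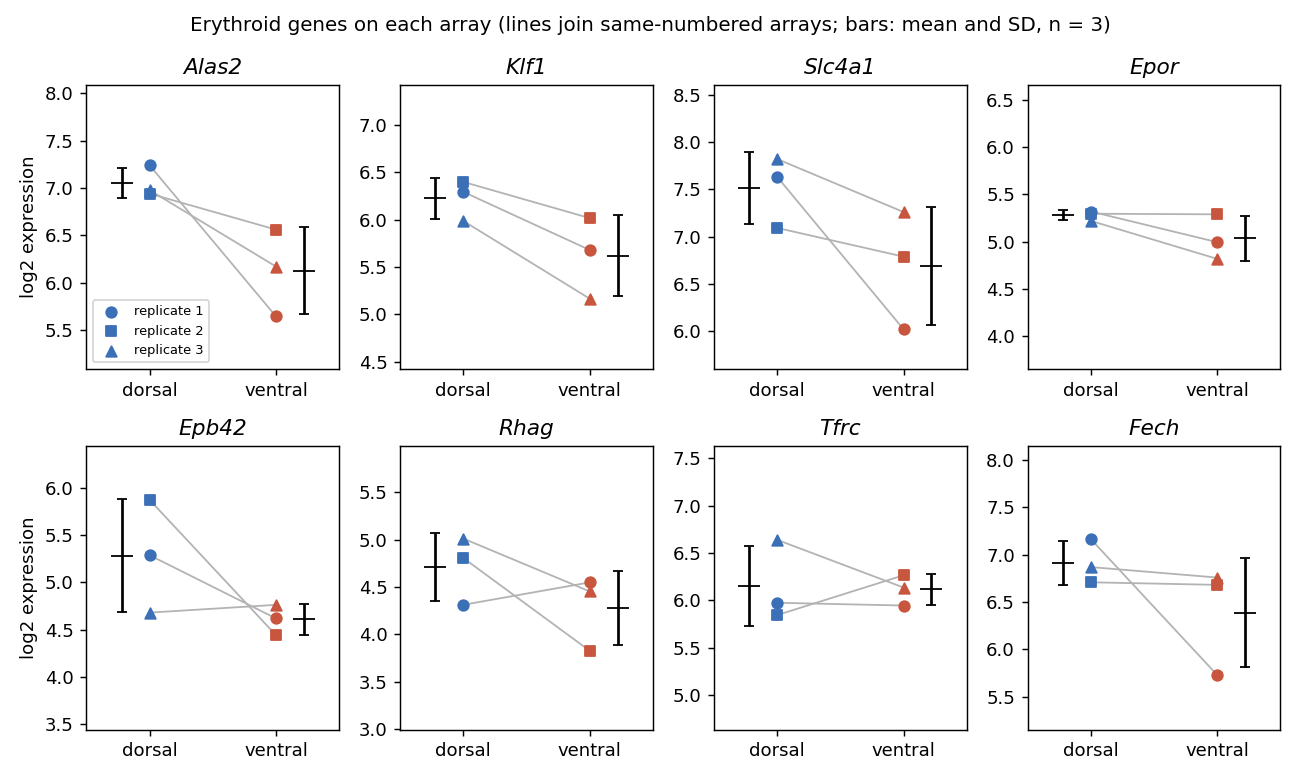
Log2 expression (vertical axis, each panel spanning 3 log2 units) of the 8 erythroid genes on 3 dorsal (blue) and 3 ventral (red) arrays, with lines joining arrays of the same replicate number and bars giving mean and SD (n = 3). Alas2 is the gene whose tissues do not overlap (lowest dorsal 6.94, highest ventral 6.56), and Tfrc shows no shift of its mean (6.15 and 6.12).

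Klf1, the master factor of terminal red cell differentiation, measured 6.29, 6.40 and 5.99 (log2) on dorsal arrays 1, 2 and 3 and 5.68, 6.02 and 5.16 on ventral arrays 1, 2 and 3. Each ventral array was below the dorsal array of the same number, but ventral 2 lay just above dorsal 3, so the tissues overlapped. The log2 fold change was −0.61 ± 0.18 (SE), a dorsal level 1.52 times the ventral one, with a 95% interval of −1.05 to −0.17 (adjusted p = 0.293). Its pairwise differences were −0.61, −0.38 and −0.82.

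Epor, the receptor through which erythropoietin keeps precursors alive, gave 5.32, 5.30 and 5.22 on dorsal and 4.99, 5.29 and 4.82 on ventral arrays. The dorsal values lay close together (SD 0.05, n = 3) and the ventral ones were more spread (SD 0.24, n = 3). Ventral 2 differed from dorsal 2 by only −0.01. Epor had a log2 fold change of −0.24 ± 0.18 (95% interval −0.68 to 0.19, adjusted p = 0.718).

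Alas2, which catalyses the first and rate-limiting step of heme synthesis in red cell precursors, gave 7.24, 6.94 and 6.98 on dorsal and 5.64, 6.56 and 6.17 on ventral arrays. All dorsal arrays were above all ventral arrays, which held for 1 of the 7 genes tested and for 7.88% of all genes. The difference was greatest in pair 1 (−1.60), intermediate in pair 3 (−0.81) and smallest in pair 2 (−0.38). The log2 fold change was −0.93 ± 0.26 (95% interval −1.56 to −0.30, adjusted p = 0.264), and −0.59 without pair 1. The dorsal level was 1.90 times the ventral one.

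Fech, the last enzyme of the pathway, gave 7.16, 6.71 and 6.87 on dorsal and 5.73, 6.68 and 6.76 on ventral arrays. Ventral 1 stood well below the other 5 arrays, which lay within 6.68 to 7.16. The log2 fold change was −0.52 ± 0.31 (95% interval −1.26 to 0.21, adjusted p = 0.627), and without pair 1 it was −0.07. The size of the difference thus rested on pair 1, in which ventral 1 is the low array.

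Tfrc, which brings transferrin-bound iron into red cell precursors and other dividing cells, gave 5.97, 5.84 and 6.64 on dorsal and 5.95, 6.27 and 6.14 on ventral arrays. Dorsal 3 was the highest array, and of the other 5, ventral 2 and 3 lay above both dorsal arrays while ventral 1 lay between them. Its log2 fold change was −0.04 ± 0.22 with a 95% interval of −0.58 to 0.50 (adjusted p = 0.978), so that a difference of up to about that size in either direction is within the error. The sign turned without pair 3, to 0.20.

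Slc4a1, band 3, the chloride-bicarbonate exchanger and chief anchor of the red cell membrane, gave 7.63, 7.09 and 7.82 on dorsal and 6.02, 6.79 and 7.26 on ventral arrays. Ventral 3 lay above dorsal 2, and ventral 1 was the lowest array. The log2 fold change was −0.82 ± 0.28 (95% interval −1.50 to −0.15, adjusted p = 0.354), and without pair 1 it was −0.43. The dorsal level was 1.77 times the ventral one.

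Epb42, protein 4.2, which binds band 3 and ankyrin, gave 5.29, 5.87 and 4.68 on dorsal and 4.62, 4.44 and 4.76 on ventral arrays. Here the spread lay on the dorsal side (SD 0.60 against 0.16, n = 3 each), and in pair 3 the ventral array was the higher one by 0.08. Between tissues the log2 fold change was −0.67 ± 0.30 (95% interval −1.39 to 0.04, adjusted p = 0.494). It was −0.29 without pair 2 and −1.05 without pair 3.

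Rhag, which carries the Rh proteins to the membrane, gave 4.31, 4.81 and 5.01 on dorsal and 4.55, 3.83 and 4.45 on ventral arrays. The tissues overlapped, and in pair 1 ventral was higher by 0.24. In the fit without the brightness filter its log2 fold change was −0.43 ± 0.26 (95% interval −1.08 to 0.21, adjusted p = 0.754).

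**Figure D2:**
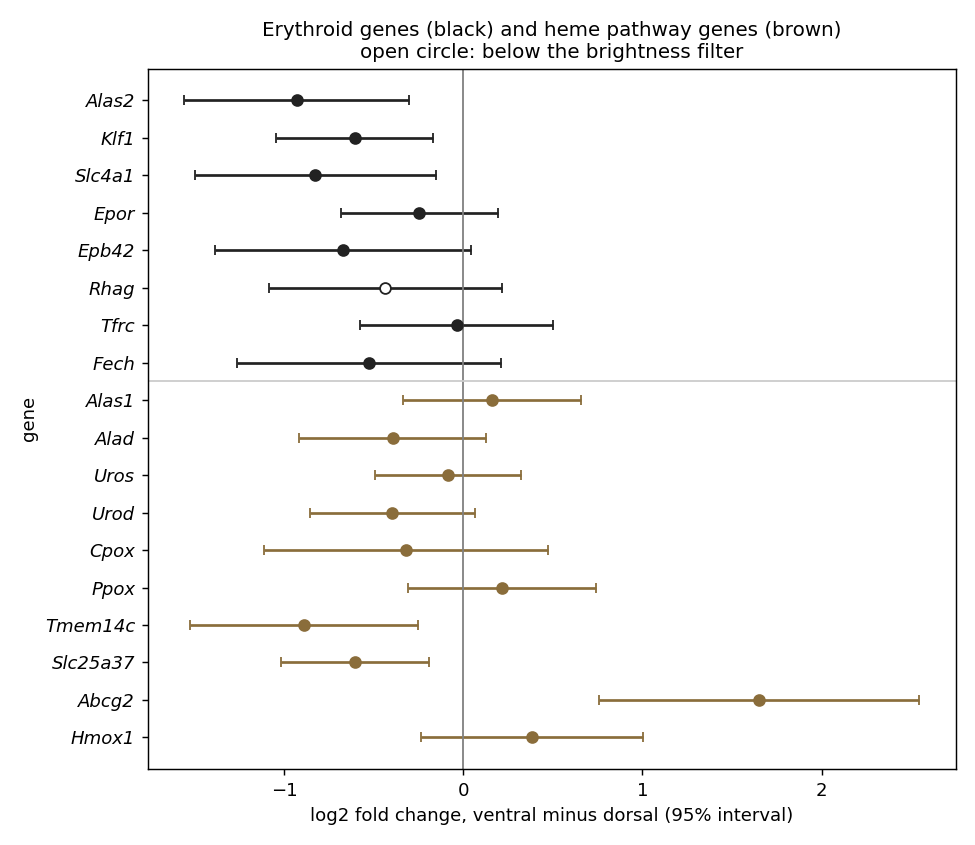
Log2 fold changes (horizontal axis, ventral minus dorsal) with 95% intervals from limma for the 8 erythroid genes (black) and for heme synthesis enzymes and the transport and breakdown genes named in the text (brown); the open circle marks Rhag, which lay below the brightness filter. The intervals of Alas2, Klf1 and Slc4a1 lie below 0, and that of Tfrc is centred near 0 (−0.58 to 0.50).

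Among the 8 genes, 5 were lower in ventral tissue in all 3 same-numbered pairs (Alas2, Klf1, Slc4a1, Epor and Fech), as were 16.9% of all genes tested, and the other 3 in 2 of 3 pairs. The genes did not share one order of the arrays. Averaged over the 7 tested genes after taking each gene relative to its own mean, dorsal arrays 1, 2 and 3 stood at 0.34, 0.24 and 0.24, and ventral arrays 1, 2 and 3 at −0.55, −0.07 and −0.20. Ventral 1 was the lowest array for 3 genes (Alas2, Slc4a1 and Fech), ventral 3 for Klf1 and Epor, ventral 2 for Epb42 and dorsal 2 for Tfrc. No gene of the 7 was highest on a ventral array.

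The remaining genes of heme synthesis and transport did not share one direction. Of 22 tested, 14 had negative and 8 positive log2 fold changes, with a median of −0.13, and none passed in limma; at an unadjusted p below 0.05 there were 3 lower and 1 higher. Of the other enzymes, Alad, which joins a pair of aminolevulinate molecules, had −0.39 ± 0.22, Urod, which removes carboxyl groups from the ring, −0.40 ± 0.19, and Cpox, the next enzyme, −0.32 ± 0.33. Uros, which closes the ring, had −0.08 ± 0.17 and Ppox, which precedes ferrochelatase, 0.22 ± 0.22. Alas1, the form of the first enzyme used outside the red cell lineage, had 0.16 ± 0.21, with 6.85, 6.64 and 6.60 on dorsal and 7.15, 6.39 and 7.03 on ventral arrays. The adjusted p of these 6 enzymes ran from 0.537 (Urod) to 0.923 (Uros). The intervals of Alas2 (−1.56 to −0.30) and Alas1 (−0.34 to 0.66) overlap, and the difference between them was not tested.

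The lowest log2 fold changes in this list belonged to mitochondrial transporters of the red cell lineage. Tmem14c, which moves protoporphyrinogen across the inner mitochondrial membrane, measured 6.83, 6.80 and 6.68 on dorsal and 5.21, 6.32 and 6.11 on ventral arrays (−0.89 ± 0.26, adjusted p = 0.285). Slc25a37, mitoferrin 1, which imports the iron that ferrochelatase uses, measured 8.74, 8.53 and 8.70 on dorsal and 8.09, 7.85 and 8.22 on ventral arrays (−0.60 ± 0.17, adjusted p = 0.268). In both genes the tissues did not overlap, with ventral 1 lowest for Tmem14c, as for Alas2 and Fech, and ventral 2 lowest for Slc25a37. At the other end stood Abcg2, a porphyrin and drug efflux pump found in stem cells and endothelium too (1.65 ± 0.37, adjusted p = 0.169), and Hmox1, which breaks heme down and is strong in macrophages (0.38 ± 0.26, adjusted p = 0.684). Abcg2 passed without pair 1 (2.24, adjusted p = 0.0194) or, with no block, without ventral 1 (2.13, adjusted p = 0.0127); over all 16 alternatives its adjusted p ran to 0.421.

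Iron uptake and storage genes showed no common direction, as Tfrc did not. Of 11 tested, 6 were negative and 5 positive, with a median of −0.00 and none passing in limma (0 at an unadjusted p below 0.05). Slc40a1, the iron exporter ferroportin, had 0.65 ± 0.47, which ran from 0.065 to 1.38 over the alternatives, and Aco1, the iron-sensing protein that binds Tfrc and Alas2 transcripts, −0.33 ± 0.18. Trf, the transferrin that Tfrc binds, differed more between replicate numbers than between tissues, with 8.48 and 9.84 on dorsal 3 and ventral 3 and 5.22 to 5.52 on the other 4 arrays. Its log2 fold change was 0.41 ± 0.31 (adjusted p = 0.728), and its sign turned without pair 3. In none of the 8 erythroid genes were both replicate 3 arrays above the other 4.

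Red cell membrane genes other than the 3 above split evenly. Of 22 tested, 11 were negative and 11 positive, with a median of −0.04 and none passing; 6 were lower and 1 higher at an unadjusted p below 0.05 in limma. The lowest were Car2, the carbonic anhydrase that works with band 3 (−1.37 ± 0.25, adjusted p = 0.106), and Icam4, an adhesion protein of the Rh complex (−1.16 ± 0.19, adjusted p = 0.0848). Car2 measured 8.06, 7.43 and 7.99 on dorsal and 6.22, 6.70 and 6.45 on ventral arrays, and Icam4 6.54, 6.37 and 6.17 on dorsal and 5.31, 5.54 and 4.77 on ventral arrays, without overlap in either gene. Car2 passed without pair 2 (adjusted p = 0.0469) and with the replicate as a random effect (0.0486), and over the alternatives its adjusted p ran to 0.242. The highest was Gypc, glycophorin C, which many cell types make (0.69 ± 0.20, adjusted p = 0.281).

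Values of some partners of the membrane genes are given next; they were picked after their values were seen, from the evenly split list above, and stand for no more than themselves. Ank1, the ankyrin that ties band 3 and protein 4.2 to the skeleton, measured 5.30, 5.49 and 5.34 on dorsal and 4.44, 4.79 and 4.69 on ventral arrays (−0.74 ± 0.17, adjusted p = 0.185). Sptb, the spectrin it holds, had −0.56 ± 0.18 (adjusted p = 0.331) and Rhd, the Rh protein that pairs with Rhag, −0.50 ± 0.25 (adjusted p = 0.557). Other partners had positive values, with Cd47, a surface protein of the Rh complex, at 0.44 (adjusted p = 0.481) and Add1, an adducin of the skeleton, at 0.12 (adjusted p = 0.895). Of Ank1, Sptb and Rhd, Ank1 kept the tissues apart on all arrays.

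**Figure D3:**
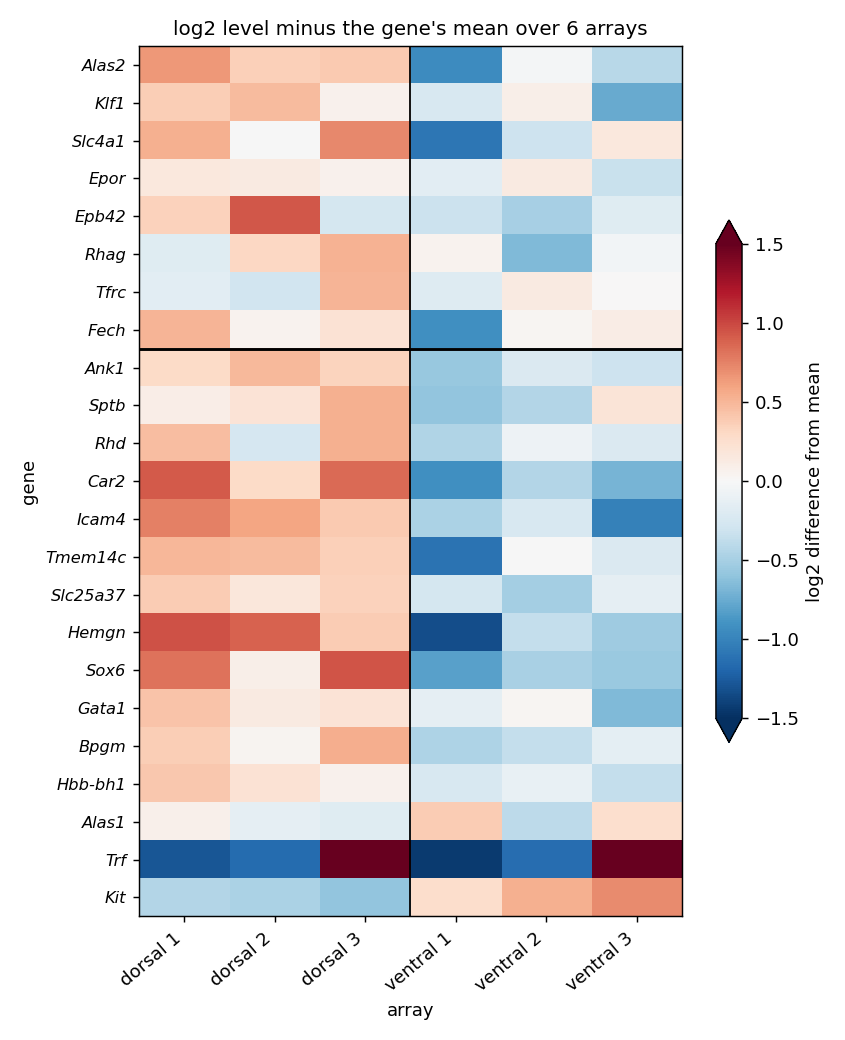
Log2 level minus each gene's mean over 6 arrays (colour, red above and blue below the mean, saturated at the ends of the scale) for the 8 erythroid genes (above the line) and 15 pathway genes (below it) on 3 dorsal and 3 ventral arrays. Most erythroid rows are red on dorsal arrays and blue on ventral 1, where the mean of the 7 tested genes is −0.55; Trf is high on both replicate 3 arrays, and Kit is higher on ventral arrays.

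Of 15 tested factors of the red cell lineage, 10 had negative and 5 positive values (median −0.19), none passed, and 4 were lower and 2 higher at an unadjusted p below 0.05 in limma. Hemgn, a nuclear protein of blood precursors, measured 7.86, 7.80 and 7.29 on dorsal and 5.58, 6.56 and 6.38 on ventral arrays (−1.48 ± 0.28, adjusted p = 0.118). Sox6, which silences embryonic globin in red cells and is also made in cartilage precursors, had −1.23 ± 0.25 (adjusted p = 0.134), and the sclerotome and cartilage markers above are higher on the same arrays; their part in this value was not tested. Gata1, the partner of Klf1 named here for that role after its value was seen, measured 5.32, 5.03 and 5.09 on dorsal and 4.75, 4.92 and 4.23 on ventral arrays (−0.51 ± 0.21, adjusted p = 0.458). The highest values belonged to the Gata1 cofactor Zfpm1 (0.64 ± 0.24, adjusted p = 0.426) and to Lmo2 (0.44 ± 0.18, adjusted p = 0.464), an adaptor that endothelium uses as well.

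The list of erythropoietin signalling genes, which also holds Kit, a receptor of another factor, had values of both signs. Of 13 tested, 3 were negative and 10 positive (median 0.11), and none passed. At an unadjusted p below 0.05 in limma 2 were higher, Kit and Sh2b3. Kit, the stem cell factor receptor of early precursors, mast cells and other lineages, gave 5.85, 5.81 and 5.70 on dorsal and 6.55, 6.83 and 7.00 on ventral arrays (1.01 ± 0.19, adjusted p = 0.118). It passed, with no block, without ventral 1 (1.13, adjusted p = 0.0439), and over the alternatives its adjusted p ran to 0.306. Sh2b3, which restrains Epor signalling, had 0.48 ± 0.18, and Bcl2l1, the survival gene that Epor signalling turns on, −0.36 ± 0.17 (adjusted p = 0.404 and 0.543).

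Globins and other late red cell genes were mostly lower on ventral arrays, by little. Of 10 tested, 9 had negative values (median −0.29), none passed, and 2 were lower and 1 higher at an unadjusted p below 0.05 in limma. The embryonic globin Hbb-bh1 had −0.46 ± 0.18 (adjusted p = 0.424) and the adult-type Hbb-bt −0.12 ± 0.17 (adjusted p = 0.885), while Bpgm, which tunes oxygen release, had −0.64 ± 0.18 (adjusted p = 0.268). Mean levels over the 6 arrays were 11.7 for Hbb-bh1 and 11.2 for Hbb-bt, against 6.59 for Alas2. Whether fold changes can be compared across such unlike levels was not tested. Bnip3l, which clears mitochondria from maturing red cells and acts in other tissues, had 0.50 ± 0.19 (adjusted p = 0.421). Hbb-bs, another adult beta globin, named after its values were seen, lay under the brightness filter, with 5.11, 4.57 and 6.20 on dorsal and 2.53, 2.86 and 4.85 on ventral arrays (−1.88 ± 0.26 and adjusted p = 0.150 in the fit without the filter). The beta globins are close copies of each other, so a probe of one may read another.

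**Figure D4:**
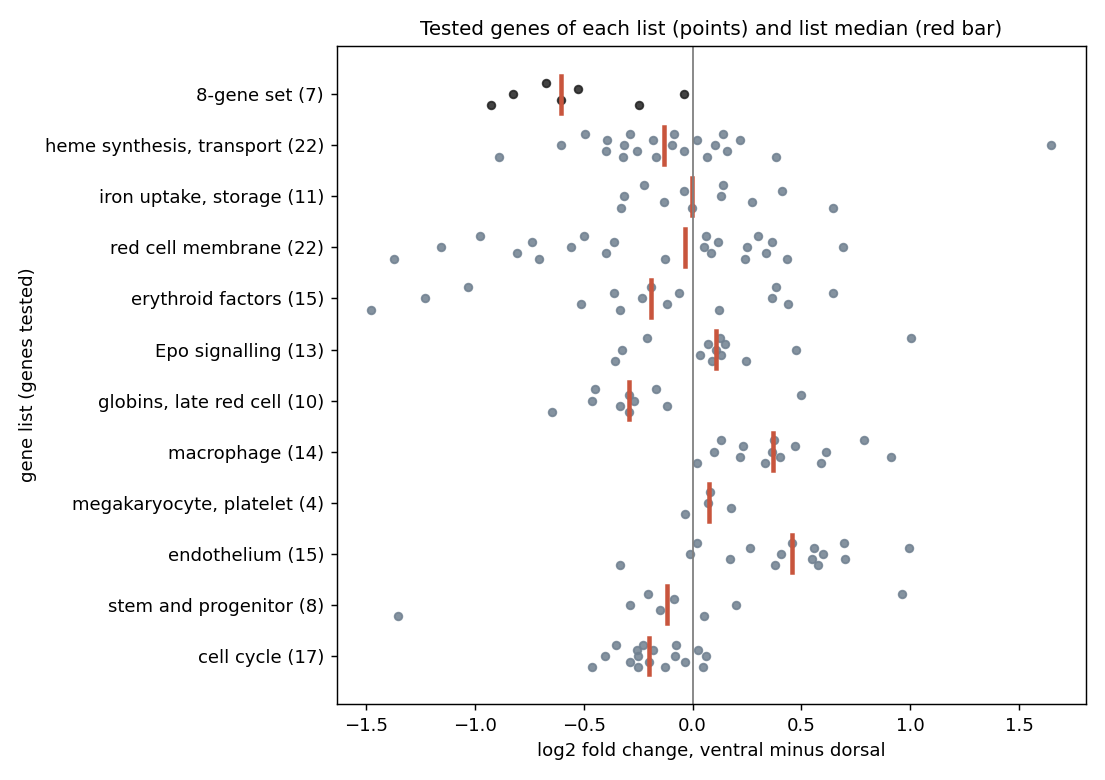
Log2 fold changes (horizontal axis, ventral minus dorsal) of the tested genes in each list (points; numbers tested in brackets; height within a row has no meaning) with the list median (red bar). Of the lists plotted, the 8-gene set has the lowest median (−0.61), and the macrophage and endothelium lists have positive medians (0.37 and 0.46). The sclerotome and visceral mesoderm lists, with medians of −2.06 and 1.89, are not plotted.

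Macrophage and endothelial genes had mostly positive values. All 14 tested macrophage genes were positive (median 0.37), with Fcgr3, an antibody receptor, at 0.91 ± 0.23 and Lyve1, a receptor of embryonic macrophages and some endothelium, at 0.79 ± 0.17 (adjusted p = 0.207 and 0.158). Of 15 endothelial genes, 13 were positive (median 0.46), with Kdr, the main receptor of vascular growth factor, at 1.00 ± 0.20 and the endothelial factor Sox18 at 0.70 ± 0.19 (adjusted p = 0.121 and 0.236). None of either list passed in limma, and 4 macrophage and 5 endothelial genes were higher at an unadjusted p below 0.05, as were 5.6% of all genes tested. The mean level of the macrophage genes was 5.26 to 5.84 on dorsal and 5.69 to 6.12 on ventral arrays, that of the endothelial genes 5.27 to 5.93 and 5.70 to 6.16, and that of the 7 erythroid genes 6.31 to 6.42 and 5.52 to 6.01. On these means the tissues overlapped for macrophage and endothelial genes and not for the erythroid genes. Dorsal arrays were also all above ventral arrays on the means of the red cell membrane, erythroid factor, globin, stem and progenitor, cell cycle and sclerotome lists. The reverse held for the visceral mesoderm list. Lowest dorsal and highest ventral means were close for stem and progenitor (5.64 and 5.62) and cell cycle genes (8.40 and 8.37), and apart for sclerotome genes (6.81 and 5.27). How often means of other genes separate the tissues was not tested.

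Megakaryocyte genes were mostly too dim to judge, with 4 of 11 measured genes tested and a median of 0.08. Of 8 stem and progenitor genes, 5 were negative (median −0.12), with Runx1 at 0.96 ± 0.33 (adjusted p = 0.354) and Mecom at −1.35 ± 0.19 (adjusted p = 0.0583; 0.416 without the block). Mecom passed with the stricter brightness filter (0.0348). Of 17 cell cycle genes, 14 were negative (median −0.20), and their mean level was 8.40 to 8.66 on dorsal and 8.20 to 8.37 on ventral arrays. Relative to each gene's own mean they were highest on dorsal 3 (0.26) and lowest on ventral 3 (−0.20). The erythroid genes were instead highest on dorsal 1 (0.34) and lowest on ventral 1 (−0.55). No gene of these 3 lists passed, and at an unadjusted p below 0.05 in limma there were 0, 2 and 1. The part of any of these lists in the erythroid values was not tested.

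The tested genes whose pattern over the 6 arrays lay nearest to the mean pattern of the 7 erythroid genes were sought among 12021 others, by the root mean square difference of centred log2 values. They were Cpsf2 (0.04), Rapgef2 (0.05), Aifm1 (0.07), Mospd3 (0.07), Mapre2 (0.08), Wdpcp (0.08), 9430091E24Rik (0.08) and Gpx1 (0.09), where the median over all was 0.38. Cpsf2, a factor of messenger RNA cleavage, gave 7.77, 7.72 and 7.68 on dorsal and 6.95, 7.33 and 7.26 on ventral arrays, a log2 fold change of −0.54 ± 0.18 (adjusted p = 0.355). Gpx1, a glutathione peroxidase abundant in red cells, gave 10.8, 10.7 and 10.7 on dorsal and 10.1, 10.4 and 10.4 on ventral arrays (−0.45 ± 0.19, adjusted p = 0.464). It was the farthest of these 8 genes and stands for no more than itself. The adjusted p of all 8 lay between 0.315 (Rapgef2) and 0.537 (Wdpcp).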

How the data were processed

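Picogram amounts of RNA from 3 dorsal and 3 ventral samples were amplified and put on Affymetrix arrays for mouse, per the labels' protocols. Amplification from so little RNA may not keep all transcripts in proportion. The values are the authors' log2 levels, for which Affymetrix Expression Console and the RMA method (background correction, quantile normalization, summary over probes) appear among the submitters' processing notes. Their versions, and the genome build, were not given in the sources used here. Array medians were 4.49 to 4.55.

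Of 24973 probe sets, 24015 had 1 symbol in the platform table, 0 several and 958 none. Named probe sets with a mean of at least 4.52, the median, were kept (12028), and limma 3.58.1 in R 4.3.3 (lmFit and eBayes, two-sided, Benjamini-Hochberg adjustment over all of these) was tested on simulated data and then run on them. The replicate number was a fixed block because both tissues came from shared embryos. Whether a number marks an embryo is not said in the labels. Deviations of same-numbered arrays correlated by 0.0786, 0.0546 and 0.191, and those of dorsal and ventral arrays of unlike number by −0.136 to 0.0764. Same-numbered arrays 1 and 2 thus stood little or not at all above that range. Where samples were not separate embryos, p-values measure only the spread between these samples. The members and the 13 gene lists (220 entries, 203 measured, the others not analysed here) were chosen with earlier results of these data known. Genes named were all members, the heme enzymes, at most the 2 highest and 2 lowest of each other list, list genes past the threshold and the 8 nearest patterns, and exceptions are marked.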

Additional observations from a re-analysis of the deposited data

How the results depend on the processing

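None of the 7 tested erythroid genes passed under any alternative run for it, 16 for Alas2, Slc4a1, Tfrc and Fech and 15 for Klf1, Epor and Epb42, which the stricter brightness filter removed. Their median log2 fold change stayed negative, from −0.73 to −0.43. With no replicate block this median was again −0.61, which the balanced design fixes in advance, since dropping the block cannot move a log2 fold change. The block changed no erythroid gene's call. Genes called over all 12028 numbered 62, against 59 with no replicate block (45 shared) and 94 with an intensity trend. Without the brightness filter, in a new fit over all 24015 named probe sets, they numbered 10, and the reason was not tested. They numbered 48 to 75 with a pair left out. With 1 array left out and no block they numbered 12, 23 and 40 without dorsal 1, 2 and 3, and 104, 13 and 18 without ventral 1, 2 and 3. Of 931 values of 60 named genes, 890 kept direction and side of the threshold and 10 reversed. A further 6 newly passed and 25 no longer passed. The last were all among the 7 tissue markers, which was fixed in advance, since no other named gene passed in the main fit. Fits that changed only the block, a filter or the intensity trend cannot turn a direction, so for them the direction was fixed in advance. With a pair left out, Tfrc ran from −0.27 to 0.20, Cpox from −0.66 to 0.18, Ppox from −0.029 to 0.36 and Trf from −0.062 to 0.69. With 1 array left out, Tfrc reversed without dorsal 3 (0.21) and ventral 1 (0.047), Ppox without dorsal 3 (−0.054), and Trf without dorsal 1 (−0.13), dorsal 2 (−0.064) and ventral 3 (−1.08). The cause of these reversals was not tested.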
